A study of Helianthus annuus with 12 samples.

Results

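The sunflower microRNAs named miR397 and miR398 were followed through small RNA libraries of roots and leaves. The members were the known microRNA entries, mature or hairpin, whose name begins with miR397 or miR398, and 8 of the 163 known microRNA names met this rule. Of these, 5 were miR397 names and 3 were miR398 names, and all 8 were mature entries. The libraries came from seedlings of sunflower (Helianthus annuus) cultivar R5, described by the submitters as drought tolerant, that were treated at the 4-leaf stage for 24 h. PEG roots and PEG leaves came from seedlings in 15% PEG 6000, a polymer used to withhold water from roots as in drought. Control roots and control leaves came from seedlings in distilled water. There were 3 libraries in each of the 4 groups, and the labels give no pooling and no statement that libraries of a group came from separate plants, so p-values measure only the spread between these libraries. In whole organs, fewer cells that make a microRNA and less of it per cell cannot be told apart.

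Plant microRNAs guide ARGONAUTE proteins to messenger RNAs with near-perfect matches, which are then cut or held back from translation. In Arabidopsis, miR398 acts on transcripts of copper/zinc superoxide dismutases, which remove superoxide in the cytosol and chloroplast, and of the copper chaperone that loads them. Also in Arabidopsis, miR397 acts on transcripts of laccases, copper enzymes of the cell wall that take part in lignin formation. Both families, with miR408 and miR857, are known as copper microRNAs, because the Arabidopsis transcription factor SPL7 raises them when copper is scarce and copper is then kept for proteins such as plastocyanin in photosynthesis.

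Total counts per library were 20829490 to 27248037 in roots and 30922418 to 33426228 in leaves, so a given count stands for a higher level in a root library. The share of reads in known microRNAs was 2.05% ± 0.207 in PEG roots and 1.17% ± 0.652 in control roots, against 8.79% ± 1.13 in PEG leaves and 9.11% ± 0.227 in control leaves (SD, n = 3 each). Ribosomal RNA fragments made up 1.2% ± 0.0574, 2.27% ± 0.169, 0.335% ± 0.116 and 0.211% ± 0.0998 of reads in the same order of groups, and their part in the differences between organs was not tested. Control root replicate 3 stood apart, with 0.550% of its reads in known microRNAs, and its TMM scaling factor over all named features of 0.295 was below the 0.772 to 1.41 of the other 11 libraries. The factors used for family sums ran from 0.496 in control root replicate 3 to 1.54 in control leaf replicate 1, with 0.758 in control leaf replicate 3. Levels are given as CPM, a count scaled to a fixed library total, with TMM factors that adjust for differences in composition between libraries, and are relative to microRNA counts for family sums and to counts of all named small RNAs for single names. A read covers a whole mature microRNA, so no length correction was made.

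Each family consisted almost wholly of 1 name. The name miR398b_2, whose sequence entry is borrowed from peach, held 99.1% ± 0.279 of miR398 reads in PEG roots, 99.3% ± 0.638 in control roots, 99.8% ± 0.0267 in PEG leaves and 99.9% ± 0.0681 in control leaves (SD, n = 3 each). In the miR397 family the name miR397a_2, shared by 18 database entries including Arabidopsis miR397a, held 91.5% ± 3.75, 91.1% ± 1.15, 91.4% ± 1.80 and 90.8% ± 1.01 of reads in the same order. The next name, miR397a_5, held 6.90% ± 2.95 in PEG roots, 7.37% ± 1.06 in control roots, 6.93% ± 1.60 in PEG leaves and 7.74% ± 0.506 in control leaves. The 3 other miR397 names, miR397_1, miR397a_4 and miR397-5p, and the 2 other miR398 names, miR398a-3p_1 and miR398, together with these make up the 8. Near-identical mature sequences can share reads, so the split between names of a family is uncertain and depends on how the authors assigned reads.

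The miR398 family was among the most abundant small RNAs of leaves and far less abundant in roots. In PEG roots it held 22735, 22830 and 19136 counts and in control roots 11816, 17794 and 3871 counts, against 728985, 581894 and 882407 counts in PEG leaves and 602834, 673933 and 941173 counts in control leaves (replicates 1, 2 and 3). Scaled, this was 7008 ± 858 CPM in PEG roots, 5104 ± 2049 CPM in control roots, 209131 ± 38438 CPM in PEG leaves and 193679 ± 98904 CPM in control leaves (SD, n = 3 each). In control leaf replicates 1, 2 and 3 the family was 16.9%, 18.3% and 22.9% of microRNA counts. The same libraries stood at 109385, 169097 and 302556 CPM, so the TMM factors widened the spread of that group. Every root library lay below every leaf library, and within each organ the PEG and control libraries overlapped. Among 34 known families it ranked 2 by mean CPM in both leaf groups, after miR166, and 7 in both root groups.

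The miR397 family was lower than miR398 in every library and had the same order of organs. It held 2362, 3261 and 1950 counts in PEG roots and 1443, 1973 and 812 in control roots, against 19652, 19056 and 16615 in PEG leaves and 14660, 23477 and 20552 in control leaves. The scaled means were 819 ± 217 CPM in PEG roots, 679.8 ± 83.3 CPM in control roots, 5297 ± 565 CPM in PEG leaves and 5053 ± 2103 CPM in control leaves (SD, n = 3 each). In CPM, root and leaf libraries did not overlap, whereas PEG and control libraries did in each organ. The family ranked 10 of 34 in both leaf groups and 14 in both root groups. As a share of known microRNA reads, miR397 held 0.493% ± 0.173 in PEG roots and 0.586% ± 0.0937 in control roots. It held 0.670% ± 0.155 in PEG leaves and 0.663% ± 0.139 in control leaves, and root and leaf libraries overlapped (SD, n = 3 each). For miR398 these shares were 4.16% and 4.18% in PEG and control roots. In PEG and control leaves they were 25.9% and 25.0%, without overlap of the organs.

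**Figure D1:**
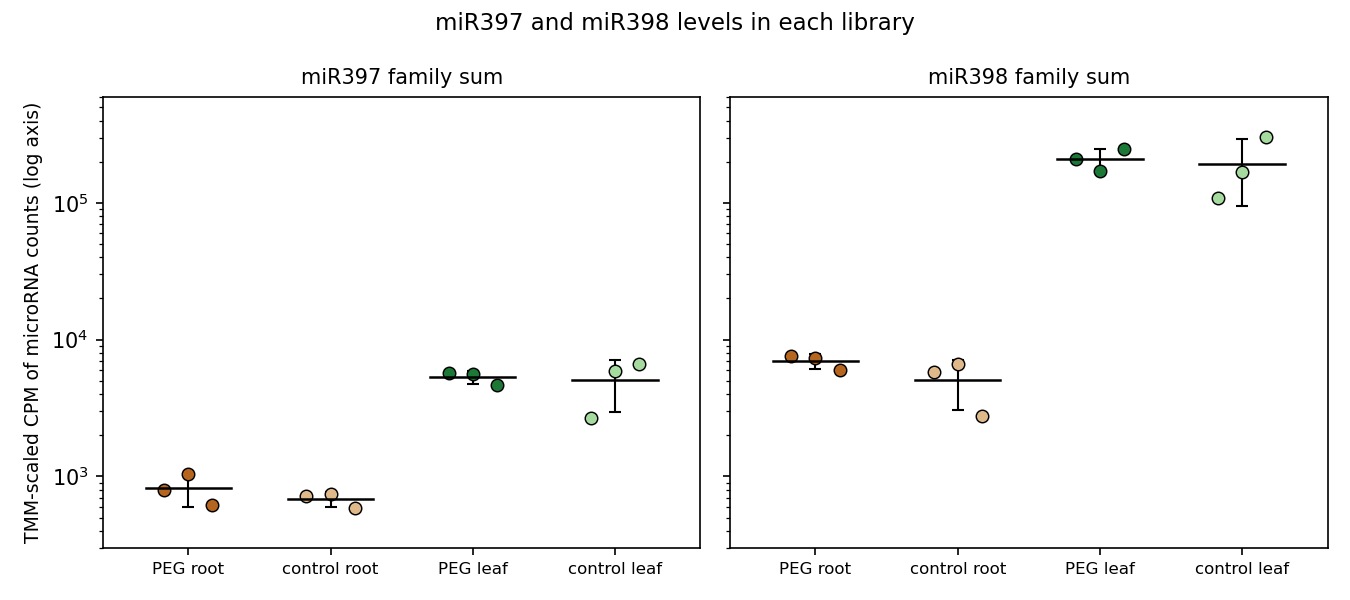
Level of the miR397 (left) and miR398 (right) family sums in each of 12 libraries, in TMM-scaled CPM of microRNA counts on a log axis, with 1 point a library, a line at the group mean and bars of 1 SD. All 6 root libraries of each family sit below all 6 leaf libraries, while PEG and control points of an organ overlap.

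The comparison of organs asks where the copper microRNAs accumulate. In control seedlings the miR398 family was lower in roots than in leaves, with a log2 fold change of -5.25 (SE 0.53, 95% interval -6.39 to -4.10, adjusted p = 4.75e-06, edgeR quasi-likelihood test). The miR397 family was also lower in control roots, with a log2 fold change of -2.89 (SE 0.40, interval -3.76 to -2.02, adjusted p = 3.56e-05). Under PEG the log2 fold change of roots against leaves was -4.90 for miR398 (SE 0.52, interval -6.02 to -3.78, adjusted p = 1.02e-05) and -2.69 for miR397 (SE 0.40, interval -3.55 to -1.83, adjusted p = 0.000102). Under PEG 31.5% of the 124 families tested and 47.1% of the 34 known families were called lower in roots, against 38.7% and 55.9% in control seedlings, so a lower level in roots was common among known families. Over all 124 families, calls went both ways: 48 were higher and 39 lower in roots under PEG, and 51 higher and 48 lower in controls. By size of the log2 fold change, miR398 stood at place 3 from the lowest of 34 known families in control seedlings and at place 4 under PEG, and miR397 at places 7 and 10. Tested in a table with all other small RNAs left in, the control fold changes were -4.33 for miR398 and -1.94 for miR397, and under PEG -4.28 and -2.07, all still called.

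Other abundant leaf families give a scale for this. The 3 known families with the highest mean in control leaves apart from these were miR166, miR167 and miR858. Picking them by that level, which also enters the control fold changes, favours families that are lower in roots. miR167, a regulator of auxin response factors, stood at 10761 ± 360 CPM in PEG roots and 7844 ± 1740 CPM in control roots, against 119558 ± 22542 CPM in PEG leaves and 110523 ± 17083 CPM in control leaves, with log2 fold changes of roots against leaves of -3.47 under PEG and -3.82 in controls. miR166, a regulator of HD-ZIP III transcription factors, had values of -1.81 under PEG and -2.41 in controls, and miR858, a regulator of MYB transcription factors, of -1.60 and -2.53. The fold change of miR398 was larger in size than each of these in both comparisons, and the difference between families was not tested.

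The ratio of the 2 families within a library does not depend on any scaling. There were 9.63, 7.0 and 9.81 miR398 reads for each miR397 read in PEG roots and 8.19, 9.02 and 4.77 in control roots, against 37.1, 30.5 and 53.1 in PEG leaves and 41.1, 28.7 and 45.8 in control leaves. The ratio was lower in every root library than in every leaf library, and PEG and control libraries overlapped in both organs. The mean log2 ratio was 3.12 ± 0.274 in PEG roots, 2.82 ± 0.496 in control roots, 5.29 ± 0.405 in PEG leaves and 5.24 ± 0.353 in control leaves (SD, n = 3 each).

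**Figure D2:**
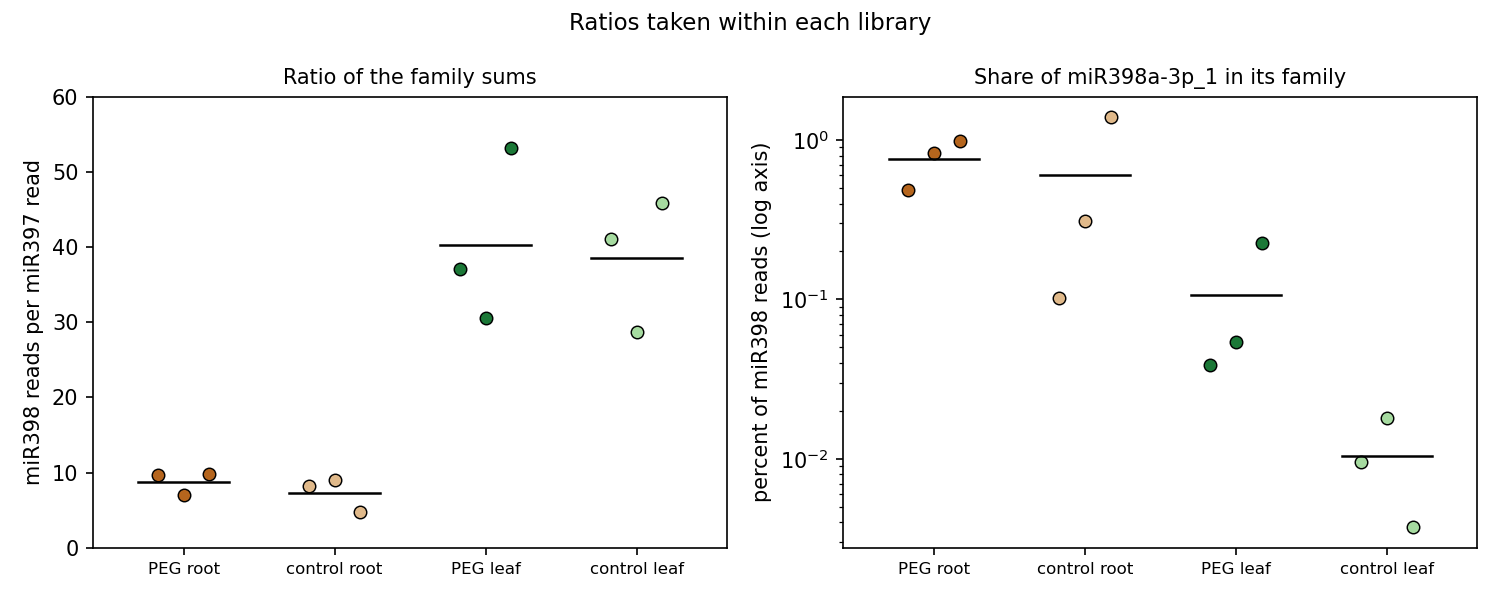
Left, miR398 reads per miR397 read in each library on a linear axis; right, the percent of miR398 reads that carry the name miR398a-3p_1 on a log axis; points are libraries and lines are group means. The ratio lies between 4.77 and 9.81 in roots and between 28.7 and 53.1 in leaves, and the share of miR398a-3p_1 is higher in each PEG leaf library than in each control leaf library. How many other features separate PEG from control leaves was not counted.

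Name by name, the same 5 of the 8 members, miR398b_2, miR397a_2, miR397a_5, miR397a_4 and miR397_1, were lower in roots in control seedlings and under PEG. All of these but miR398b_2 are miR397 names, which can share reads, so the 5 calls are not independent of each other. In control seedlings 5 of 8 names were lower and 0 were higher at an adjusted p under 0.05 (edgeR), against 18.3% lower and 5.48% higher among all 10604 named features, and 20.2% lower among 129 known microRNA names. Under PEG 5 of 8 were lower and 0 higher, against 12.3% lower and 4.27% higher among all features, and 20.9% lower among known names. The median log2 fold change of the 8 names was -1.97 in control seedlings and -2.18 under PEG, beside medians of -4.75 and -1.15 over all features tested, most of which are siRNAs. Over the 129 known microRNA names the medians were -0.43 in control seedlings and -0.93 under PEG, nearer to 0 than those of the members. With library totals of all reads in place of TMM factors, the share of lower calls among all calls in control seedlings was 89.3%, against 76.9% with TMM factors.

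miR398b_2 held 22572, 22631 and 18895 counts in PEG roots and 11793, 17705 and 3816 counts in control roots, against 727607, 580692 and 880276 counts in PEG leaves and 602049, 673795 and 941120 counts in control leaves. All 6 root libraries were lower than all 6 leaf libraries. Its log2 fold change of roots against leaves was -4.33 in control seedlings (SE 0.32, adjusted p = 0.000111, edgeR) and -4.28 under PEG (SE 0.32, adjusted p = 0.000174). With siRNAs left out of the table these were -6.14 and -5.08, and with library totals of all reads -5.48 and -4.74.

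miR397a_2 held 2129, 3123 and 1729 counts in PEG roots and 1300, 1795 and 750 in control roots, against 18057, 17035 and 15434 in PEG leaves and 13183, 21236 and 18882 in control leaves. Its log2 fold change was -1.93 in control seedlings (adjusted p = 0.00168, edgeR) and -2.04 under PEG (adjusted p = 0.00289), and it was -3.89 and -2.85 with siRNAs left out. Root and leaf libraries of this name did not overlap. The less abundant miR397a_5 held 50 to 194 counts in root libraries and 914 to 1951 in leaf libraries, with log2 fold changes of -2.02 in control seedlings and -2.20 under PEG, and of -3.91 and -3.0 with siRNAs left out.

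miR397a_4 and miR397_1 were lower in roots as well, at counts near the limit of measurement there. miR397a_4 held 14, 8 and 14 counts in PEG roots and 15, 8 and 5 in control roots, against 111, 163 and 112 in PEG leaves and 129, 101 and 98 in control leaves. Its log2 fold change was -2.62 under PEG (adjusted p = 0.00431, edgeR) and -1.71 in control seedlings (adjusted p = 0.0132). miR397_1 held 18, 14 and 18 counts in PEG roots and 15, 10 and 7 in control roots, against 85, 148 and 138 in PEG leaves and 166, 175 and 64 in control leaves, with log2 fold changes of -2.09 (adjusted p = 0.00948, edgeR) and -1.76 (adjusted p = 0.0208). The control call of miR397_1 was lost without control leaf replicate 1 (adjusted p = 0.0627) or 2 (adjusted p = 0.0584), and with limma voom (-1.61, adjusted p = 0.0720). With the replicate number as a block, 3 of the 8 names remained below the threshold in control seedlings and 4 under PEG; miR397_1 stood at adjusted p = 0.0773 and 0.0573 and miR397a_4 at 0.0582 in control seedlings.

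**Figure D3:**
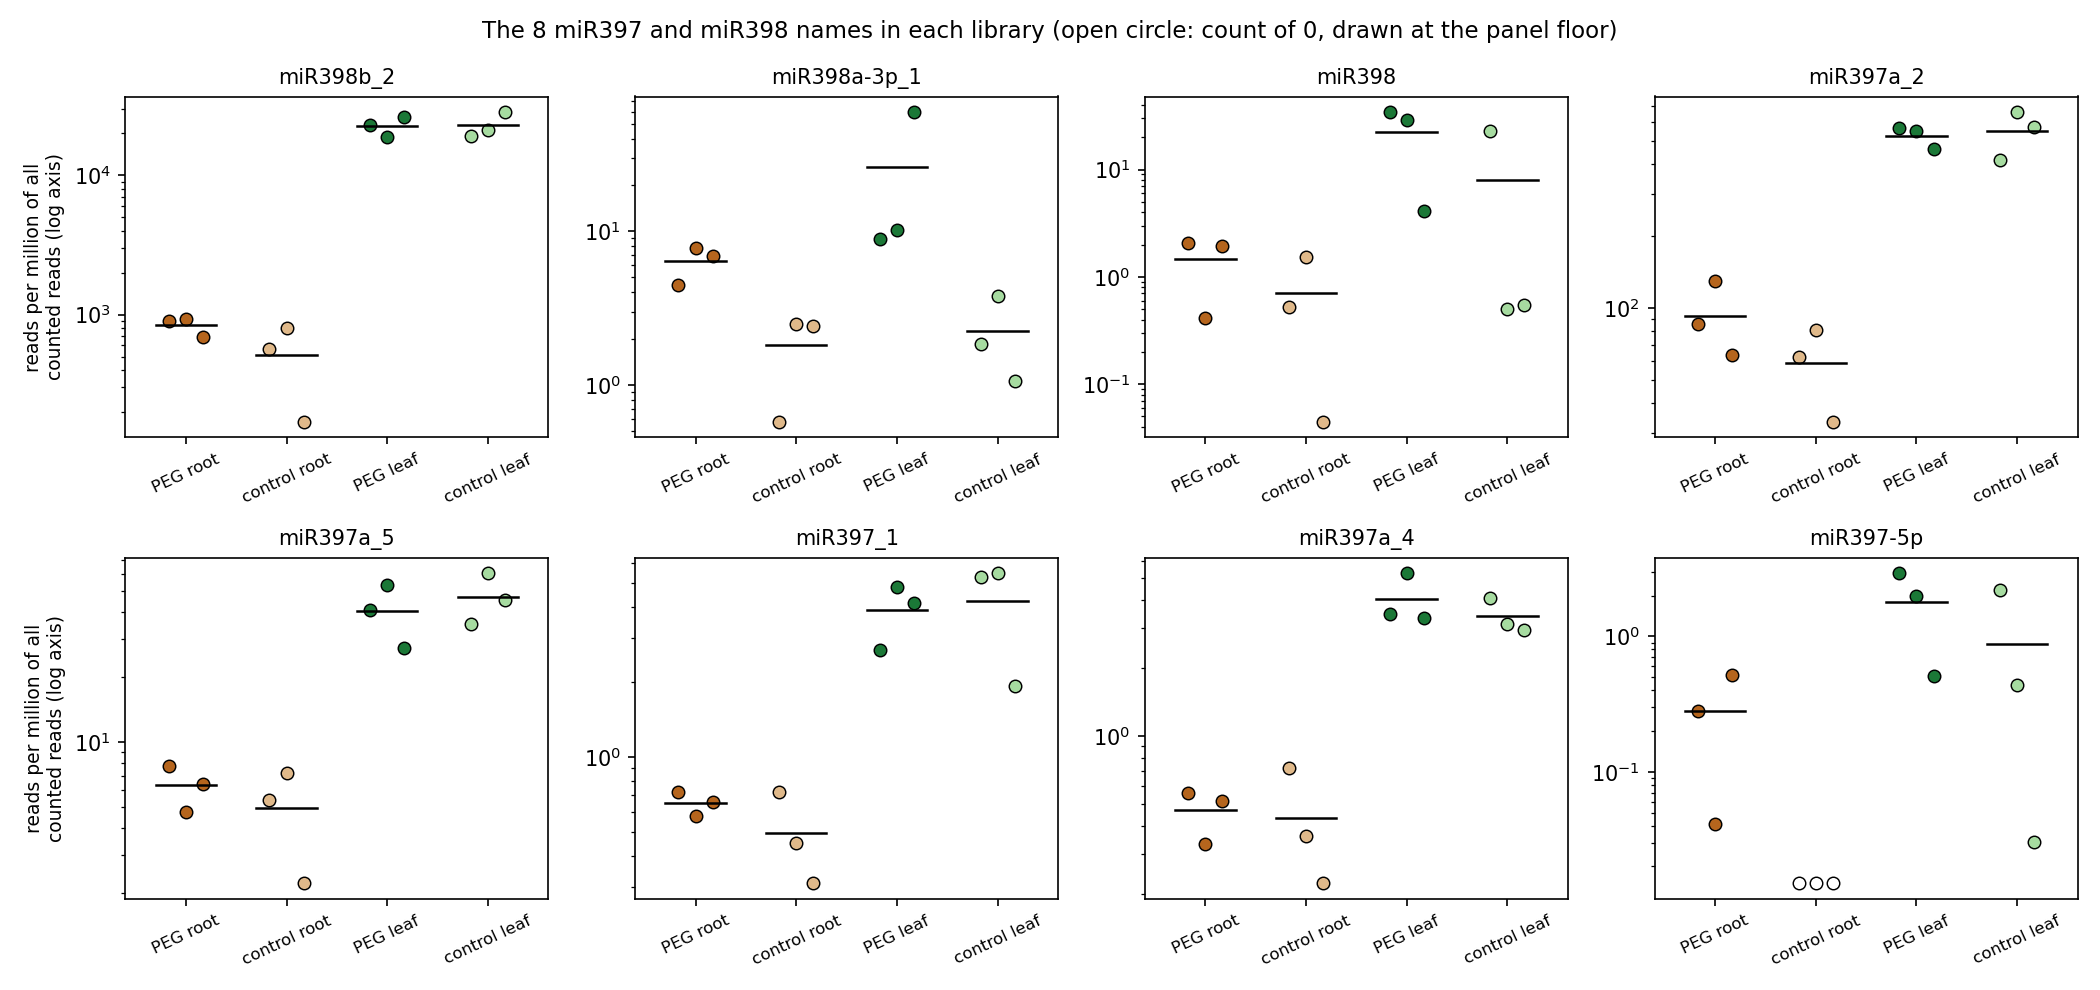
CPM of all counted reads, with no TMM factor, for each of the 8 names in 12 libraries, on log axes whose range differs by panel; points are libraries, lines are group means and open circles are counts of 0. The names miR398b_2, miR397a_2, miR397a_5, miR397_1 and miR397a_4 separate roots from leaves, whereas miR398a-3p_1, miR398 and miR397-5p spread within groups.

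The 3 remaining names, miR398, miR397-5p and miR398a-3p_1, passed in neither organ comparison. The name miR398, shared by peanut and flax entries, held 52, 10 and 53 counts in PEG roots and 11, 34 and 1 in control roots, against 1094, 888 and 138 in PEG leaves and 727, 16 and 18 in control leaves. Control leaf replicate 1 was thus far above the other 2 control leaf libraries. Its log2 fold change of roots against leaves was -3.41 under PEG (SE 1.55, adjusted p = 0.167, edgeR) and -2.47 in control seedlings (SE 1.52, adjusted p = 0.223), and without control leaf replicate 1 the control value was 1.46 in the opposite direction. It was called lower in roots under PEG by DESeq2 (adjusted p = 0.0191) and, with siRNAs left out, in both comparisons (adjusted p = 0.0465 under PEG and 0.0376 in controls, edgeR).

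miR397-5p, whose entry is borrowed from potato, was seen at few counts and was listed at 0 in all control roots. It held 7, 1 and 14 counts in PEG roots, against 0 in each control root library, 93, 61 and 17 in PEG leaves and 69, 14 and 1 in control leaves. A count of 0 allows up to 3 counts in a library, a mean of 1.60 CPM over the control roots. Against this stood 3.27, 1.80 and 0.255 CPM in the PEG root libraries and 9.09, 1.71 and 0.132 CPM in the control leaf libraries, from the highest to the lowest. In control leaves 1 library decided the mean. In PEG roots 3.27 and 1.80 CPM lay above the 1.60 CPM, and 0.255 CPM lay below it. With so few counts no fold is given. Neither difference passed (adjusted p = 0.375 for PEG against control roots and 0.0649 for control roots against control leaves, edgeR). The difference between organs passed with DESeq2 (adjusted p = 0.0149), with siRNAs left out (0.00750), with either kind of library totals (0.0300 and 0.0258) and without control leaf replicate 3 (0.0275).

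The PEG comparisons ask whether the copper microRNAs respond to drought-like stress. Neither family sum passed in either organ. In leaves the log2 fold change of PEG against control was 0.11 for miR398 (95% interval -0.84 to 1.06, adjusted p = 0.925, edgeR) and 0.07 for miR397 (interval -0.74 to 0.88, adjusted p = 0.958). In roots it was 0.46 for miR398 (interval -0.50 to 1.41, adjusted p = 0.545) and 0.27 for miR397 (interval -0.54 to 1.08, adjusted p = 0.658). The intervals reach a log2 change of 1.41 in size, and the signs of both families in leaves and of miR397 in roots turned with other scalings. Among all 124 families 3.23% were called in leaves and 0% in roots, where 19 had an unadjusted p under 0.05 (edgeR). The median log2 fold change was 0.35 in leaves and 0.31 in roots over all families, and 0.24 and 0.35 over known families. With RLE factors 0 families were called in roots, and 2 families were called higher and 1 lower in leaves.

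The difference between the PEG effects of roots and leaves was also below the threshold. It was 0.35 for miR398 (interval -1.0 to 1.69, adjusted p = 0.767, edgeR) and 0.20 for miR397 (interval -0.94 to 1.35, adjusted p = 0.863), as log2 fold change in roots minus that in leaves. Of the 124 families 0 passed this test (0%, edgeR with TMM factors), with 30 at an unadjusted p under 0.05, and with RLE factors 3 were called higher and 10 lower, neither miR397 nor miR398 among them.

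**Figure D4:**
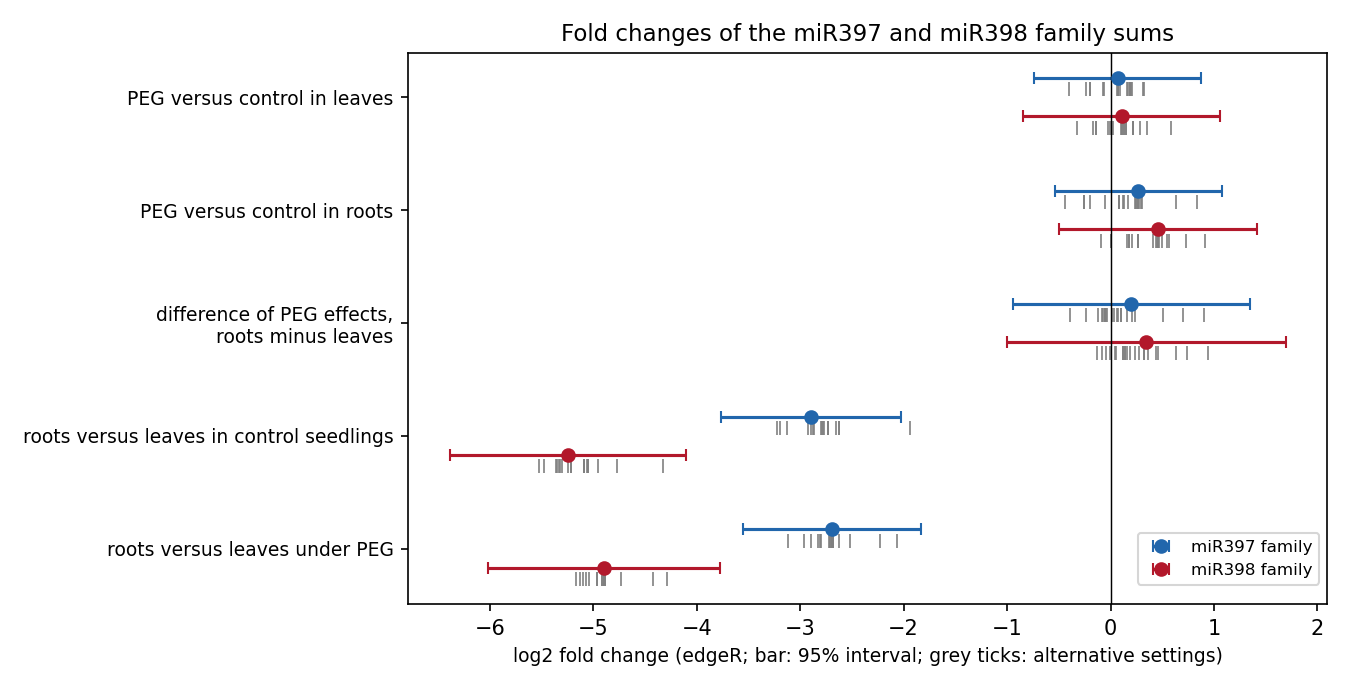
Log2 fold changes of the miR397 and miR398 family sums in the 5 comparisons, with points for the edgeR estimate, bars for its 95% interval and grey ticks for 22 alternative settings. Intervals of the PEG comparisons and of their difference span 0, and those of roots against leaves lie wholly below it, with miR398 at -5.25 and -4.90 and miR397 at -2.89 and -2.69.

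Of the 8 names, 0 passed under PEG in leaves, in roots or in the difference of effects (edgeR), with 1 at an unadjusted p under 0.05 in each. Over all features 0% were called in leaves, 2.17% in roots and 2.03% in the difference. DESeq2 called 1 name in leaves and 0 in the other comparisons, and limma voom 0 in all. The median log2 fold change of the 8 names was 0.25 in leaves and 0.07 in roots, beside 0.03 and 0.00 over all features. Over the 129 known microRNA names it was 0.23 in leaves and 0.03 in roots. Of the dominant names, miR398b_2 stood at 0.12 in leaves and 0.17 in roots and miR397a_2 at 0.08 and -0.04. In roots miR398b_2 stood at 0.86 with library totals of the tested table and at 0.88 with siRNAs left out, neither called. The names miR397a_5, miR397_1 and miR397a_4 stood at -0.08, 0.04 and 0.38 in leaves and at -0.26, -0.30 and -0.53 in roots. The signs in roots of all 4 miR397 names given here turned positive with library totals, a scaling that moved the median of all features in roots by 0.45 to 0.58.

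The name with the lowest unadjusted p in leaves was miR398a-3p_1, a minor name shared by 17 entries that include Arabidopsis miR398a-3p. It held 284, 314 and 1993 counts in PEG leaves, against 58, 122 and 35 in control leaves. Each PEG leaf library was above each control leaf library, and PEG leaf replicate 3 was far above the others. All other names of the 2 families overlapped between PEG and control leaves. With 3 libraries a group such a separation can arise by chance, and its share over all features was not counted. The scaled means were 123 ± 139 CPM in PEG leaves and 9.05 ± 5.27 CPM in control leaves (SD, n = 3 each), a log2 fold change of 3.76 (SE 1.01, interval 1.51 to 6.01) that did not pass over all features (unadjusted p = 0.00386, adjusted p = 0.703, edgeR) and that DESeq2 called (3.79, adjusted p = 0.0167). Without PEG leaf replicate 3 it was 2.23. Within the family, this name held 0.106% ± 0.104 of miR398 reads in PEG leaves and 0.0105% ± 0.00723 in control leaves, again without overlap.

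In roots miR398a-3p_1 held 111, 189 and 188 counts in PEG libraries, against 12, 55 and 54 in control libraries. As CPM of all counted reads, with no TMM factor, these were 4.45, 7.82 and 6.90 in PEG roots and 0.576, 2.48 and 2.41 in control roots, without overlap. The share of all features that separate PEG from control roots in this way was not counted. With TMM scaling the groups overlapped, at 40.2 ± 10.3 CPM in PEG roots and 23.7 ± 21.2 CPM in control roots, with a log2 fold change of 0.78 (SE 0.92, adjusted p = 1.0, edgeR). The value was 1.74 without control root replicate 3, 0.28 without control root replicate 1 and 2.01 with library totals of the tested table. The difference of its PEG effects, roots minus leaves, was -2.98 (SE 1.32, unadjusted p = 0.0466, adjusted p = 0.470, edgeR). It was -1.45 without PEG leaf replicate 3, -2.0 without control root replicate 3 and -1.43 with library totals of the tested table. It was also the 1 member not lower in control roots than in control leaves, at a log2 fold change of 1.37 (SE 0.94, adjusted p = 0.259) that was 0.34 without control root replicate 3 and turned to -0.29 with library totals of all reads. Under PEG its log2 fold change of roots against leaves was -1.61 (SE 0.93, adjusted p = 0.238, edgeR), with -2.31 when siRNAs were left out (adjusted p = 0.0305) and -0.086 without PEG leaf replicate 3 (adjusted p = 0.983).

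The name miR398 stood at a log2 fold change of 1.59 for PEG against control leaves (SE 1.44, unadjusted p = 0.295) and miR397-5p at 1.15 (SE 1.33, unadjusted p = 0.410), both with an adjusted p = 1.0 (edgeR) and overlapping libraries. Without control leaf replicate 1 they were 5.52 and 3.10. In roots the name miR398 stood at 0.65 (SE 1.47, adjusted p = 1.0), with 1.90 without control root replicate 2 and 0.23 without control root replicate 3.

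Of the 4 other copper families listed for comparison, miR408, miR528, miR857 and miR1444, 0 had a known microRNA name among the deposited counts. miR408 acts in Arabidopsis on transcripts of laccases and of plantacyanin, a small blue copper protein. Fragments assigned to the Rfam family of the MIR408 precursor (RF00690) held 101, 119 and 84 counts in PEG roots and 38, 43 and 199 in control roots, against 99, 100 and 51 in PEG leaves and 104, 50 and 126 in control leaves. It passed in 0 of the 5 comparisons (edgeR), with its smallest adjusted p = 0.0776 for roots against leaves in control seedlings, where it stood at a log2 fold change of 2.45 that was 0.21 without control root replicate 3 and that passed without control root replicate 1 (2.94, adjusted p = 0.0310) or 2 (2.72, adjusted p = 0.0450). The corresponding precursor families were scarce. MIR398 (RF00695) held 1, 4 and 0 counts in PEG roots and 1, 5 and 6 in control roots, against 3, 2 and 16 in PEG leaves and 7, 26 and 7 in control leaves. MIR397 (RF00704) held at most 6 counts in any library and was listed at 0 in all control roots.

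The families whose pattern was most like the miR398 sum were sought by the root mean square difference of log2(CPM + 1) over 12 libraries, after centring each family. Among 120 families they were the predicted microRNAs novel_mir72 (0.37), novel_mir29 (0.46) and novel_mir43 (0.54), against a median of 2.70. novel_mir29 stood at 154 ± 67.2 CPM in PEG roots and 105 ± 64.8 CPM in control roots, against 4670 ± 125 CPM in PEG leaves and 3918 ± 679 CPM in control leaves. novel_mir72 was listed at 0 in all 6 root libraries and averaged 40.4 ± 1.64 CPM in PEG leaves and 36.4 ± 18.6 CPM in control leaves. Its likeness to miR398 therefore depends on the 1 added to each CPM. The smallest count above 0 of any predicted microRNA or siRNA was 10, so a listed 0 need not mean absence. For miR397 the nearest were novel_mir1 (0.44), miR166 (0.49) and novel_mir23 (0.50), against a median of 2.05. Each family was not the other's nearest: miR398 stood at place 37 of 120 by likeness to miR397, and miR397 at place 10 by likeness to miR398.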

How the data were processed

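The authors deposited a raw count for each small RNA feature and library, and beside it a TPM value; only counts were analysed. Deposited TPM equalled counts scaled to the column total within 0.0051 in 99.4% of cells. Bowtie2 2.2.9 and Bowtie appear in the submitters' processing notes, with no role. Counting rules, genome build and microRNA release were not given in the sources used here. A further 3 entries that name no feature (exons, introns, between genes) held 79.7% to 86.0% of counts and stayed out of library sizes.

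Counts were fitted in R 4.3.3 with edgeR 4.0.16 (TMM factors, glmQLFit, glmQLFTest, a mean per group, all 12 libraries), after a filter that kept any feature with 10 or more counts in 3 or more libraries. Names were tested among 10604 features, and sums per family among 124 families of known and predicted microRNAs; p-values were adjusted by Benjamini-Hochberg over each table and called under 0.05. Intervals are at 95% with edgeR's moderated degrees of freedom, and like floors of 3 counts they cover spread or counting error only, since reads carry no molecular identifiers. The pipeline was tested on simulated data. Known changes were found at a moderate spread between libraries, and for families at their own spread. They were not found at the larger spread estimated over all names, so a name that missed the threshold is not shown to be unchanged. The planted changes were larger than any within the PEG intervals of the family sums. A family that missed the threshold is therefore not shown to be unchanged either. Alternatives used DESeq2 1.42.0, limma 3.58.1 (voom), other scalings, count minimums and tables, a replicate block and each library left out.

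All 8 members are named, with the 3 most abundant other leaf families, the copper list and the 3 most similar families; the members and lists were chosen with earlier results of these data known. Replicate numbers of control roots and control leaves deviated together (correlations 0.182 to 0.218 over all named features, 0.136 to 0.333 over families), and those of PEG and control roots over families alone (0.196 to 0.294). This pairing is a hint from the data, not the labels; numbers of the other groups did not deviate together. No organ marker list was used here, so organ labels were not checked. Mature sequences were not used here.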

Additional observations from a re-analysis of the deposited data

How the results depend on the processing

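Both families were lower in roots, and called, in all 22 alternatives of both organ comparisons. None of these scaled to known microRNA reads alone. As a share of those reads, miR397 overlapped between root and leaf libraries, while miR398 was lower in every root library. Leaving out single libraries moved the log2 fold change of miR398 between -5.53 and -4.77 in control seedlings and between -5.17 and -4.90 under PEG, and that of miR397 between -3.20 and -2.65 and between -3.12 and -2.63. The number of names called lower in control roots was 3 with the replicate block, 4 with limma voom, 6 with DESeq2, 7 with siRNAs left out and 4 to 6 with a library left out; under PEG it was 4 with the block, 7 with siRNAs left out and 5 with any library left out. The block changed no other call of a family sum or name. In PEG leaves DESeq2 called 1 name where the other alternatives called 0.

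The PEG effects of the family sums, none called in any alternative, had no stable sign. In leaves miR397 stood at -0.20 with RLE factors and with DESeq2, -0.067 and -0.068 with library totals of the tested table and of all reads, -0.40 with at least 50 counts in 3 libraries and -0.24 to 0.32 with a library left out. miR398 stood at -0.14 with RLE factors and with DESeq2, -0.027 and -0.0070 with the 2 kinds of library totals, -0.33 with at least 50 counts and -0.17 to 0.59 with a library left out. In roots miR397 stood at -0.26 with RLE factors and with DESeq2, -0.44 with at least 50 counts, -0.053 among all named features and -0.20 to 0.31 with a library left out, and miR398 at -0.10 with at least 50 counts. The difference of effects of miR397 was -0.054 with RLE factors, -0.053 with DESeq2, -0.032 with at least 50 counts, -0.13 among all named features and -0.39 to 0.51 with a library left out; that of miR398 was -0.13 to 0.63 with a library left out. With library totals of the tested table and of all reads, this difference was 0.90 and 0.70 for miR397 and 0.94 and 0.74 for miR398, and the PEG effect in roots was 0.83 and 0.63 for miR397 and 0.91 and 0.73 for miR398. The cause was not tested.

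Signs of single names under PEG turned with scaling, with siRNAs left out and with single libraries left out. In leaves, with library totals of the tested table, of all reads and with siRNAs left out, the values were -0.14, -0.12 and -0.35 for miR397_1, -0.046, -0.061 and -0.23 for miR397a_2, and -0.015, -0.0094 and -0.18 for miR398b_2. In roots the same 3 settings gave 0.54, 0.40 and 0.56 for miR397_1, 0.80, 0.65 and 0.81 for miR397a_2, 0.24, 0.11 and 0.27 for miR397a_4, 0.48, 0.35 and 0.52 for miR397a_5 and 0.86, 0.73 and 0.88 for miR398b_2; miR397a_2 also stood at 0.014 with no filter and 0.027 with at least 50 counts. With a library left out, leaf values were -0.29 to 0.26 for miR397_1, -0.082 to 0.18 for miR397a_2, -0.32 to 0.12 for miR397a_5 and -0.036 to 0.36 for miR398b_2, and root values -0.33 to 0.23 for miR397a_2 and -0.45 to 0.025 for miR397a_5. For roots against leaves in control seedlings, miR398a-3p_1 stood at -0.17, -0.29 and -1.03 in those 3 settings, and the name miR398 at -3.73 to 1.46 with a library left out. The MIR408 precursor (RF00690) stood at 0.037 with limma voom, 0.19 with the replicate block and -0.35 to 0.26 with a library left out in leaves, at 0.15 with library totals of the tested table, 0.19 with siRNAs left out and -1.88 to 0.79 with a library left out in roots, and at -0.23 with siRNAs left out for control roots against control leaves. Low counts in roots limit what can be said of miR397_1, miR397a_4, miR397-5p and the name miR398 there.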
